A study of Mus musculus with 32 samples.

Results

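Livers taken at zeitgeber time 18 (ZT18, where ZT is the hour of the lighting cycle) were compared with livers taken at ZT6 in mice kept under short light (SL). The comparison used the 8 libraries whose labels give SL with ZT18 (4 libraries) or ZT6 (4 libraries), out of 32 libraries in all. Every mouse was a male of the inbred strain C3H/HeNCrl on a high fat diet, and none carried a transgene or received a drug according to the labels. The remaining 24 libraries came from SL at ZT0 and ZT12 and from long light (LL) at 4 times. How long the lights were on each day, which event sets ZT0 and how old the mice were are not stated in the labels. The labels number 4 samples per group without naming the animals' source, so p-values measure the spread between these samples.

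The liver clock is a feedback loop. ARNTL (also called BMAL1) pairs with CLOCK or NPAS2 and switches on genes through E-box sequences, among them the Per and Cry genes, whose proteins then block that pair. The nuclear receptors REV-ERB (Nr1d1, Nr1d2) hold down Arntl and Npas2, and the output factors DBP, TEF and HLF act on D-box sequences that NFIL3 also binds. Feeding, glucocorticoids and body temperature impose daily rhythms on the liver as well, and many genes of sugar, fat, bile acid and drug metabolism follow them.

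Total counts of the 8 libraries ranged from 13178546 to 20782403 reads. Levels are given as CPM (reads of a gene per 1000000 reads counted, scaled for library composition), and differences as log2 of ZT18 over ZT6 ± standard error (SE). The SE was derived from the test, as the absolute log2 difference divided by the square root of the F statistic. Tests are the quasi-likelihood F-test of edgeR with p-values adjusted by Benjamini-Hochberg over 14456 tested genes, and a gene is called where the adjusted p is under 0.05. The first principal component of the 8 libraries carried 41.1% of the variance and separated both groups. The second (14.4%) parted ZT6 replicates 1 and 3 (scores of 23.02 and 13.04) from ZT6 replicates 2 and 4 (-21.7 and -16.4). On it ZT18 replicates 1 and 2 scored -13.9 and -4.41, and ZT18 replicates 3 and 4 scored 9.62 and 10.7. The 12 hepatocyte markers together reached 119000 to 135000 CPM at ZT6 and 117000 to 125000 CPM at ZT18. Of these 12, 2 were called lower (16.7%, against 6.98% of all tested genes), Ass1 (-0.46 ± 0.10) and Tat (-0.60 ± 0.21). The fit on the 8 libraries alone called 5 lower, and 1 was called without ZT6 replicate 1, 2 or 4 or ZT18 replicate 2, 3 or 4. None of the 12 Kupffer cell markers (353 to 445 CPM at ZT6, 381 to 417 at ZT18) and none of the 12 sinusoidal endothelial markers (533 to 605 at ZT6, 509 to 586 at ZT18) was called by edgeR, limma-voom or DESeq2, with 0 and 2 genes at an unadjusted p under 0.05 in edgeR. The edgeR fit on the 8 libraries alone called 2 endothelial markers lower. Of 12 stellate cell markers 1 was called higher (8.33%, against 8.09% of all tested genes), Pdgfrb (0.61 ± 0.14). Of 6 tested bile duct markers 2 were called higher, among them Sox9 (0.74 ± 0.22, call lost without any 1 of 4 libraries). Of 2 tested neutrophil markers 1 was called higher, S100a9 (1.57 ± 0.41), and the neutrophil markers together reached at most 3.39 CPM. The 1 tested exocrine pancreas marker was called higher (0.557), and 1 of 2 tested adipocyte markers, Cidec, was called lower (-1.57 ± 0.29). The skeletal muscle markers are given with Acta1 below. In bulk liver, fewer cells of a type and less RNA per cell cannot be told apart.

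At ZT18, 1169 genes were higher (8.09% of tested genes) and 1009 were lower (6.98%) than at ZT6, 2178 in all (15.1%). Each list count below is to be read beside these shares. Differences of 2-fold or more were seen in 194 of the higher genes (1.34%) and 230 of the lower genes (1.59%). The median log2 difference was 0.52 in the higher genes and -0.58 in the lower genes, against 0.01 over all tested genes. The lower side held the deeper changes, with 56 genes changed 4-fold or more against 31 on the higher side. With size factors from DESeq2 in place of the edgeR scaling the split was 1064 higher and 1092 lower, so the excess of higher genes depended on the scaling. Set against the other SL times, 866 of the 1009 lower genes (85.8%) had their highest SL mean at ZT6, and 1000 of the 1169 higher genes (85.5%) had their lowest SL mean at ZT6. ZT18 was the highest of the 4 times for 773 higher genes (66.1%) and the lowest for 740 lower genes (73.3%). These genes were chosen by their difference between ZT6 and ZT18, which fixes part of these counts. No lower gene was highest at ZT18 and no higher gene was highest at ZT6. The same count over all tested genes is not given, so these shares do not place the peak or trough of the day.

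**Figure D1:**
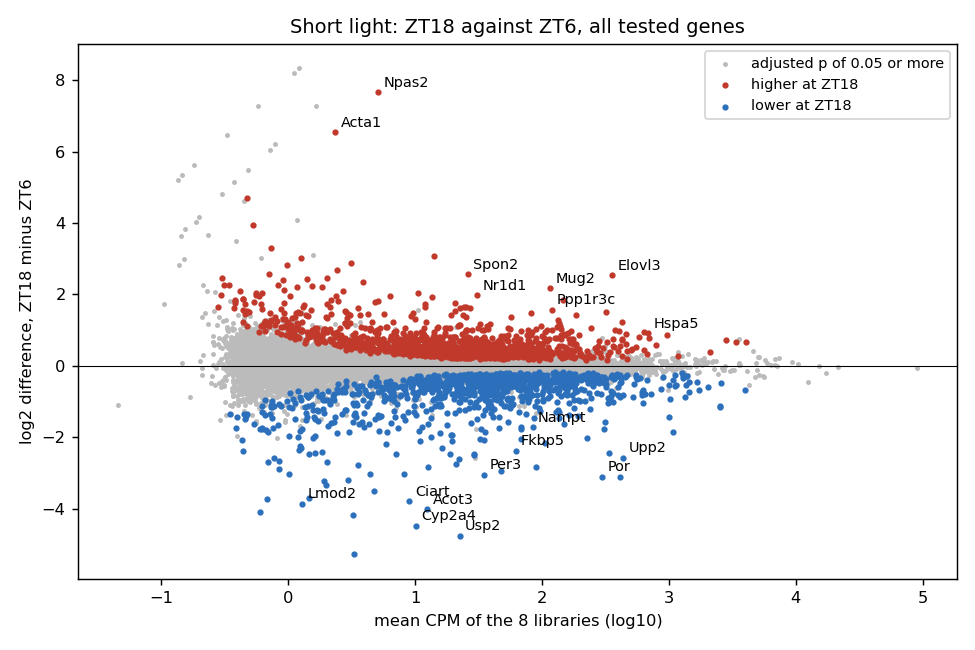
Each point is a tested gene, with its mean level over the 8 SL libraries (log10 CPM) on the x axis and its log2 difference ZT18 minus ZT6 on the y axis; red and blue mark genes with adjusted p under 0.05. The lower side reaches further down among well-expressed genes (Por at -3.10, Usp2 at -4.76), while Npas2 (7.65) and Acta1 (6.55) stand on few reads at ZT6.

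The genes with the smallest p-values were nearly all lower at ZT18. Por encodes the electron donor of all microsomal cytochrome P450 enzymes and lies on chromosome 5 (GRCm38, 135670033 to 135735326). Its level was 461.9, 596.8, 447.8 and 612.0 CPM in ZT6 replicates 1 to 4, and 68.4, 54.9, 75.5 and 48.7 CPM in ZT18 replicates 1 to 4. The groups lie far apart, and the difference was -3.10 ± 0.18 (edgeR adjusted p = 1.56e-12). Nrg4, a hormone-like ligand of the ErbB receptors, fell from 25.4 to 36.0 CPM to 5.21 to 6.29 CPM, a difference of -2.46 ± 0.15 (edgeR adjusted p = 2.25e-12). Usp2, a ubiquitin protease under clock control, measured 46.1, 48.9, 32.3 and 46.1 CPM at ZT6 and 1.42, 1.98, 1.54 and 1.37 CPM at ZT18. All 4 ZT18 livers were more than 10-fold below the lowest ZT6 liver, and the difference was -4.76 ± 0.32 (edgeR adjusted p = 1.42e-11). A second gene model, Gm49380, covers all of Usp2 on the other strand, and the labels do not state whether the counting used strand. Also among the 10 smallest p-values were Nmrk1, a kinase that acts on nicotinamide riboside on the way to NAD (-2.60), and Papss2, which makes the sulfate donor for conjugation (-1.21). So were Rhbdd2 (-1.33), the uridine phosphorylase Upp2 (-2.58) and the cell cycle kinase Wee1 (-2.83).

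The single gene among those 10 that rose was Npas2. It had 3 reads in all 4 ZT6 livers together (0.13, 0.07, 0 and 0 CPM) and 684 reads in the ZT18 livers (6.02, 9.36, 12.3 and 13.2 CPM). The ratio of its share of reads was 241, with a 95% counting interval of 82.2 to 1172 that covers counting error only, and edgeR gave an adjusted p of 5.51e-10. Npas2 was already at 10.4 ± 3.74 CPM (SD, n = 4) in SL at ZT12 and at 0.17 ± 0.09 CPM (SD, n = 4) at ZT0.

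Of the 5 clock activators, 2 rose, Npas2 and Arntl, and 1 that is not reported here fell. Arntl measured 7.98, 10.5, 21.6 and 14.7 CPM at ZT6 and 28.98, 29.9, 32.6 and 30.5 CPM at ZT18, a difference of 1.14 ± 0.23 (edgeR adjusted p = 0.00078). The ZT18 livers were alike, and the ZT6 livers were more spread and all below them. Clock (0.47 ± 0.19, edgeR adjusted p = 0.0985) and Rora (-0.12 ± 0.20, edgeR adjusted p = 0.783) were not called.

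Of the 10 clock repressors, 8 fell and 1 rose. Per3 measured 62.4, 72.1, 47.7 and 66.0 CPM at ZT6 and 12.6, 7.04, 5.66 and 4.41 CPM at ZT18 (-3.05 ± 0.26, edgeR adjusted p = 1.24e-09). Its whole span also lies within Camta1 on the same strand. Per1 fell by 2.49 and Per2 by 1.30 on the log2 scale, and the cryptochromes fell less, by 0.69 for Cry1 and 0.55 for Cry2. Ciart, a repressor of the CLOCK and ARNTL pair, dropped from 8.44 to 25.4 CPM to 0.56 to 1.75 CPM (-3.79 ± 0.46). Bhlhe40, which competes for E-boxes, fell by 1.30, and Bhlhe41 (-0.50 ± 0.58, edgeR adjusted p = 0.661) was not called.

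The REV-ERB pair went in opposite directions. Nr1d1 measured 13.3, 15.9, 8.49 and 12.2 CPM at ZT6 and 80.4, 44.8, 40.1 and 30.7 CPM at ZT18, a rise of 1.99 ± 0.30 (edgeR adjusted p = 1.45e-05). Nr1d2 measured 54.3, 77.2, 61.7 and 55.3 CPM at ZT6 and 50.4, 32.9, 29.2 and 24.5 CPM at ZT18, a fall of 0.86 on the log2 scale (SE 0.18, edgeR adjusted p = 0.00095). Both genes had no overlap between groups, and ZT18 replicate 1 was the highest ZT18 liver for both, as it was for Per3, Dbp and Tef. In SL as a whole Nr1d1 was lowest at ZT12 (3.59 ± 1.42 CPM, SD, n = 4) and highest at ZT0 (98.8 ± 24.1 CPM, SD, n = 4), so neither of the times compared was its extreme. The 3′ part of Nr1d1 overlaps Thra on the other strand.

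Of the 7 output factors, 5 fell and 1 rose. Besides Usp2 and Wee1, the D-box factors fell: Tef from 198.0 to 250.8 CPM to 60.7 to 95.1 CPM (-1.63 ± 0.14), Dbp from 11.8 to 24.3 CPM to 3.41 to 10.8 CPM (-1.64 ± 0.37) and Hlf by 0.58. Nfil3, their opponent, rose by 0.46 ± 0.13 (edgeR adjusted p = 0.0125), with groups that overlapped. That call was lost without ZT6 replicate 1 (adjusted p = 0.0626) or ZT6 replicate 2 (adjusted p = 0.0657). Lonrf3 was not called (-0.29 ± 0.27).

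**Figure D2:**
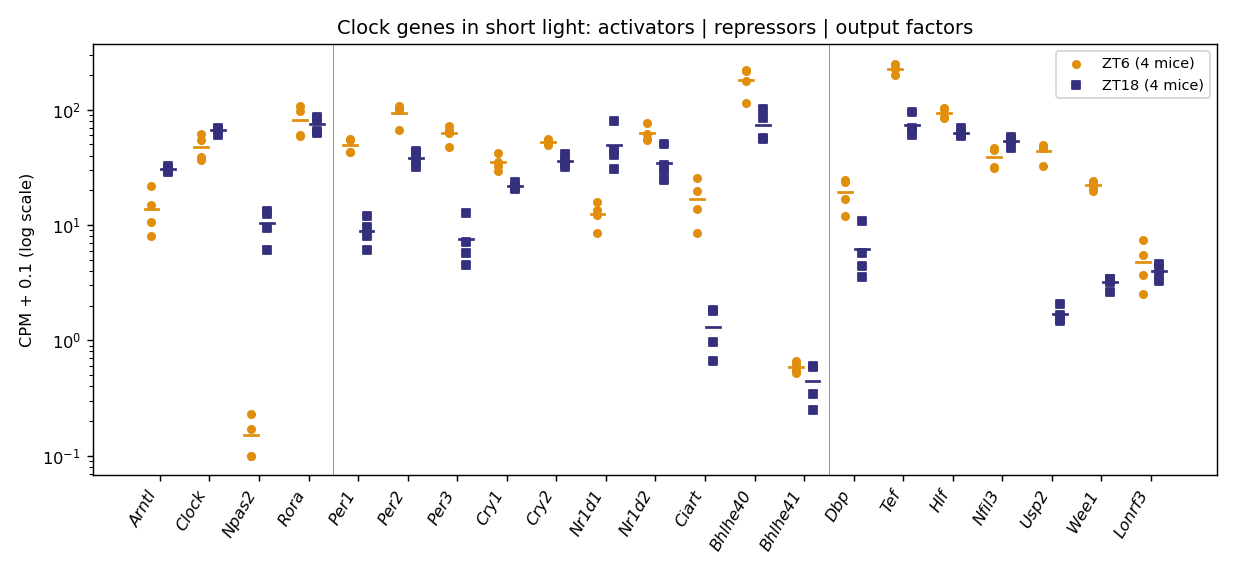
Levels of 21 clock genes in each SL liver (CPM plus 0.1, log scale), circles for ZT6 and squares for ZT18 with a bar at the group mean, in the order activators, repressors and output factors. Npas2, Arntl and Nr1d1 stand higher at ZT18, Per1, Per3, Ciart, Usp2 and Wee1 stand far lower, and Rora, Clock, Bhlhe41 and Lonrf3 were not called.

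Promoter stretches of 3 clock genes that fell are given to show the letters named above. Bases are from RefSeq on GRCm38.p6, read 5′ to 3′ on the gene's own strand, with the motif in capitals. The Tef stretch (chr15:81811231-81811326, + strand) and the Per1 stretch (chr11:69098738-69098833, + strand) hold an E-box, and the Per3 stretch (chr4:151044818-151044915, - strand) holds a D-box.
Tef: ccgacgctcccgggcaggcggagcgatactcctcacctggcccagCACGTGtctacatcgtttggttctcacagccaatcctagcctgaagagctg
Per1: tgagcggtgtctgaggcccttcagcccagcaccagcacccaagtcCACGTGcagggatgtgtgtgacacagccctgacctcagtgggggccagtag
Per3: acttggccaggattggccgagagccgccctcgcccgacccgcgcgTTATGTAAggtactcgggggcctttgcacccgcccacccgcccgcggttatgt

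The E-box CACGTG, searched on both strands in the 250 bases before each RefSeq start, was in 8.04% of 13429 windows of tested genes, in 8.13% of windows of higher genes and in 10.3% of windows of lower genes. The D-box (TTATGTAA or TTACGTAA, both strands) was rarer, in 0.685% of all windows, 0.433% of higher and 1.87% of lower. The D-box share among lower genes rests on 19 windows, and no test was made of it. Other motifs were searched in the same windows. The ROR element was in 0.186% of all windows, 0.346% of higher and 0.295% of lower. The heat shock element was in 0.372%, 0.346% and 0.689%, and the cyclic AMP element TGACGTCA in 2.44%, 1.12% and 2.36%, in the same order. A match is a description of the letters and does not show binding.

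Among called protein folding genes, those of the endoplasmic reticulum mostly rose, and cytosolic and mitochondrial heat shock proteins fell. Of 20 chaperones and folding factors of the endoplasmic reticulum (ER), 13 rose and 1 fell, with a median log2 difference of 0.55. Manf, a secreted factor induced by ER stress, measured 25.9, 34.3, 24.4 and 43.0 CPM at ZT6 and 76.1, 99.96, 70.9 and 84.0 CPM at ZT18 (1.38 ± 0.18, edgeR adjusted p = 2.07e-06). Its span overlaps Rbm15b on the same strand and Dcaf1 on the other. Calr, the calcium-binding chaperone calreticulin, rose from 373.9 to 487.8 CPM to 655.8 to 788.6 CPM (0.82 ± 0.11). The disulfide isomerases Pdia4 (0.76) and Pdia6 (0.56) rose, as did Hspa5 (0.91 ± 0.15), the central ER chaperone BiP. The exception was Herpud1, which acts in the removal of misfolded ER proteins. It fell from 375.4 to 542.6 CPM to 183.1 to 241.4 CPM (-1.05 ± 0.16, edgeR adjusted p = 2.31e-05). In SL the mean of Manf was highest at ZT12 (88.8 ± 18.96 CPM, SD, n = 4) and close to that at ZT18 (82.7 ± 12.7 CPM, SD, n = 4).

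Of 24 cytosolic and mitochondrial heat shock proteins, none rose and 10 fell, with a median of -0.27. Hspa8, the constitutive HSC70, measured 478.7, 549.3, 509.0 and 577.7 CPM at ZT6 and 294.9, 311.6, 255.2 and 286.2 CPM at ZT18 (-0.88 ± 0.14, edgeR adjusted p = 3.17e-05). Hspa1a (-2.65 ± 0.48) and Hspa1b (-1.42 ± 0.30) encode the inducible HSP70 and are near-identical copies whose reads may be shared, and their co-chaperone Dnaja1 fell by 0.57. Without ZT6 replicate 4 the falls numbered 6, and the fit on the 16 SL libraries called 12 lower and 1 higher. Of 13 tested genes of the integrated stress response, Atf5 (1.02 ± 0.11) and Atf4 (0.59 ± 0.15) rose and Atf3 (-1.04 ± 0.35) fell. The Atf3 call was lost when any 1 of 7 libraries was left out. These 3 calls make 23.1% of the list, against 15.1% of all tested genes. The cold-inducible RNA-binding proteins Cirbp (0.60 ± 0.15) and Rbm3 (-0.48 ± 0.10) moved in opposite directions.

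Stretches before 3 ER genes that rose hold the ER stress response element (ERSE), the sequence through which ATF6 and its partners act. Shown are those with the smallest p among stretches outside annotated exons, Calr (chr8:84847030-84847138, - strand), Pdia6 (chr12:17266446-17266544, + strand) and Creld2 (chr15:88819475-88819583, + strand), the last a folding factor that rose by 0.90. The element is in capitals, and in Calr and Creld2 it reads as the reverse complement.
Calr: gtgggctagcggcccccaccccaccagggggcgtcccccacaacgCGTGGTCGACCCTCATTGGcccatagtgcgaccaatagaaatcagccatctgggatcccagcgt
Pdia6: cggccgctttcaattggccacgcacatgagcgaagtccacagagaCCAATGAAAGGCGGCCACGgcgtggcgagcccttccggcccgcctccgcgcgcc
Creld2: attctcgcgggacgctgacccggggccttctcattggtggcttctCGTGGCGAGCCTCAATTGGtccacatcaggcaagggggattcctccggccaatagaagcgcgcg

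The ERSE (CCAAT, then 9 bases of any kind, then CCACG, both strands) was in 19 of 13429 windows (0.141%), among them 10 windows of higher genes (0.865% of theirs) and 1 window of a lower gene (0.0984%). Of 18 ER folding genes with a RefSeq window 8 held it, and 6 of those were called. That is to be read beside the whole ER list, where 14 of 20 genes were called (70%). Called ER genes that hold the element are also counted among the windows above, so these counts overlap. These windows were searched because the genes moved together, and the shares carry no test.

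On the list of gluconeogenesis and the fasting response, every called gene was lower at ZT18. Of its 18 genes, 11 fell and none rose (median -0.53). Lpin1, which makes diacylglycerol and acts as a fasting coactivator, measured 488.3, 557.7, 382.0 and 839.2 CPM at ZT6 and 104.7, 132.9, 98.5 and 84.0 CPM at ZT18 (-2.43 ± 0.27, edgeR adjusted p = 1.37e-07). The fasting transcription factor Foxo1 (-0.90), the aminotransferase Got1 (-1.01) and the glucose 6-phosphate transporter Slc37a4 (-0.47) fell as well. G6pc, the last enzyme of the pathway, was not called (-0.18 ± 0.29, edgeR adjusted p = 0.775). Of 19 genes that handle glucose uptake, glycolysis or glycogen, 6 fell and 2 rose. Gys2, liver glycogen synthase, fell from 233.6 to 346.2 CPM to 135.8 to 157.5 CPM (-0.98 ± 0.11), and Pfkfb1, which sets the level of fructose 2,6-bisphosphate, fell by 1.07. Ppp1r3c, a subunit that brings protein phosphatase 1 to glycogen, rose from 48.9 to 74.0 CPM to 158.7 to 187.7 CPM (1.57 ± 0.24, edgeR adjusted p = 1.51e-05). Another such subunit, Ppp1r3g, was among the 10 largest falls (-3.34 ± 0.65). The fit on the 8 libraries alone called 10 of these 19 genes lower.

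Of 15 tested glucocorticoid-induced genes, 8 fell and 1 rose, with a median of -1.09. Fkbp5, a co-chaperone of the glucocorticoid receptor, measured 87.9 to 132.9 CPM at ZT6 and 15.3 to 26.2 CPM at ZT18 (-2.38 ± 0.25, edgeR adjusted p = 3.87e-08). The groups lie more than 3-fold apart. The kinase Pim3 (-1.56) and the metallothionein Mt1 (-2.46 ± 0.49) fell, and Per1, counted above among the repressors, is also on the list. Sgk1, a kinase, rose by 0.74 ± 0.23 (edgeR adjusted p = 0.0253), and lost its call without ZT6 replicate 3 or 4 or ZT18 replicate 2 or 3 (adjusted p = 0.0598 to 0.106).

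In fat metabolism, 16 of 31 genes of fatty acid oxidation and ketogenesis fell and 1 rose (median -0.31). Slc25a20, which carries acylcarnitines into mitochondria, measured 142.1, 116.3, 145.0 and 132.0 CPM at ZT6 and 84.2, 91.1, 97.9 and 100.1 CPM at ZT18 (-0.52 ± 0.08, edgeR adjusted p = 1.09e-05). ZT6 replicates 1 and 3 were the highest, and the groups did not overlap. Among the acyl-CoA thioesterases, which free fatty acids from coenzyme A, Acot3 (-4.02 ± 0.58), Acot2 (-2.19 ± 0.37), Acot4 (-2.05 ± 0.25) and Acot1 (-1.98 ± 0.31) fell and Acot6 (-0.58 ± 0.38, edgeR adjusted p = 0.357) was not called. These genes are a cluster of similar copies, so reads may be split among them. Ppard, a nuclear receptor for fatty acids, was the member that rose, from 10.8 to 15.1 CPM to 22.4 to 43.8 CPM (1.43 ± 0.15, edgeR adjusted p = 3.00e-08). The count of 16 depended on single livers, falling to 7 without ZT6 replicate 1, 8 without ZT6 replicate 3, 10 without ZT18 replicate 1 and 9 without ZT18 replicate 2. ZT6 replicates 1 and 3 are the livers that the second principal component set apart from ZT6 replicates 2 and 4. The part of that split in the count was not tested.

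Of 23 genes of fatty acid and triglyceride synthesis 8 fell and 2 rose, led by Lpin2 (-1.77 ± 0.19), Lpin1 and the lipogenic factor Thrsp (-1.84 ± 0.23), with the desaturase Fads2 at -1.14. The rise of Elovl1 (0.33), an elongase, was small, and that of Agpat2 (0.25, edgeR adjusted p = 0.0440) was lost with other scalings, with no filter, in the fit on the 8 libraries alone, on the authors' log2 values and without ZT6 replicate 1, 2 or 3 or ZT18 replicate 3 or 4. Fasn, the fatty acid synthase itself, was not called (0.32 ± 0.29, edgeR adjusted p = 0.545). The fit on the 8 libraries alone called 11 of these 23 genes lower. Of 21 tested lipid droplet proteins and lipases 8 fell and 3 rose. The droplet protein Fitm2 (-1.01 ± 0.13) and the lipase inhibitor Angptl4 (-1.46 ± 0.20) fell, and lipoprotein lipase (Lpl) rose from 13.5 to 24.3 CPM to 27.6 to 55.9 CPM (1.18 ± 0.24, edgeR adjusted p = 0.00082). The 8 falls became 5 without ZT6 replicate 1 and 4 without ZT18 replicate 1 or ZT18 replicate 2. Of 27 cholesterol genes 3 rose and 1 fell, near the shares of all tested genes. Insig2, a brake on sterol synthesis, rose by 0.89 ± 0.16. Without ZT18 replicate 2 the rises came to 1, and the fit on the 8 libraries alone called 5 lower.

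Elovl3, which elongates very long chain fatty acids, had the 5th largest rise among named genes with a mean of at least 1 CPM. It measured 77.5, 114.6, 114.3 and 107.8 CPM at ZT6 and 532.0, 761.2, 439.0 and 683.8 CPM at ZT18 (2.54 ± 0.23, edgeR adjusted p = 2.80e-09). Every ZT18 liver was more than 3-fold above every ZT6 liver. Its neighbour Pitx3, which overlaps it by 10 bases on the other strand, rose from 0.52 to 0.91 CPM to 2.57 to 6.37 CPM (2.68 ± 0.44).

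**Figure D3:**
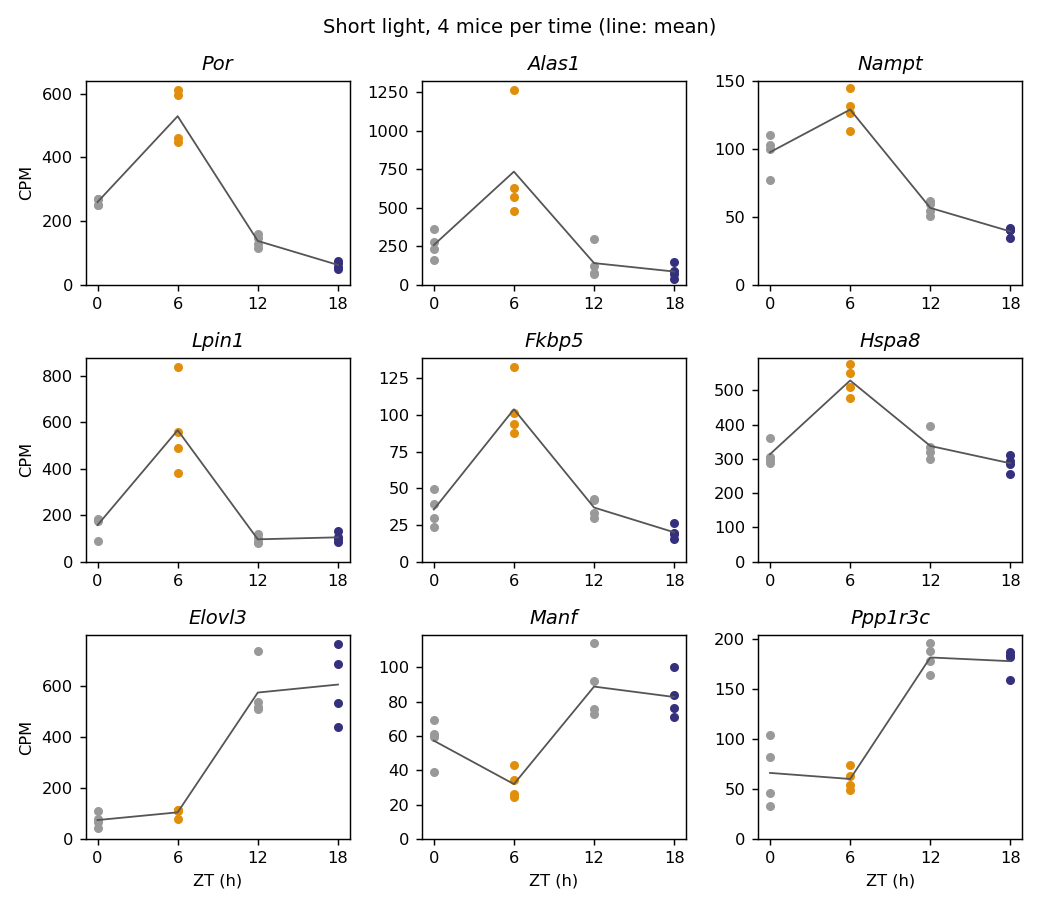
Levels (CPM, linear axis from 0) of 9 genes at the 4 SL times, 1 point per liver, 4 livers per time, orange for ZT6, dark blue for ZT18, grey for the other times, line through the means. Por, Alas1, Nampt, Lpin1, Fkbp5 and Hspa8 are highest at ZT6, whereas Elovl3, Manf and Ppp1r3c are already high at ZT12.

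Of 10 xenobiotic receptors and cofactors 5 fell and none rose: Por, the receptors Nr1i2 (PXR, -0.99 ± 0.09) and Nr1i3 (CAR, -0.92 ± 0.16), Arnt (-0.52 ± 0.08), the partner of the dioxin receptor, and Alas1 (-3.12 ± 0.52). Alas1, the first enzyme of haem synthesis, measured 569.6, 628.9, 477.4 and 1262 CPM at ZT6 and 34.8, 71.9, 145.5 and 87.2 CPM at ZT18, with ZT6 replicate 4 highest and no overlap (edgeR adjusted p = 6.20e-05). Of 25 tested cytochrome P450 genes of families 1 to 3, 4 fell and 1 rose (20% called, against 15.1% of all tested genes). Cyp2a5 fell from 405.8 to 510.0 CPM to 131.7 to 186.0 CPM (-1.56 ± 0.20). Its close copy Cyp2a4 measured 55.6, 1.46, 19.4 and 1.47 CPM at ZT6 and 0.44, 0.48, 1.76 and 0.99 CPM at ZT18, so the groups overlap and reads may be shared with Cyp2a5. The Cyp2a4 call (-4.47 ± 0.97, edgeR adjusted p = 0.00145) was lost with limma-voom (adjusted p = 0.0879). With the stricter filter 2 P450 genes were lower. Cyp2u1, a fatty acid hydroxylase, rose by 1.17 ± 0.21.

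In bile acid metabolism, Cyp7a1, the rate-limiting enzyme of synthesis, measured 403.2, 421.8, 182.2 and 441.4 CPM at ZT6 and 100.9, 80.8, 127.8 and 48.9 CPM at ZT18 (-2.02 ± 0.33, edgeR adjusted p = 4.95e-05). ZT6 replicate 3 stands apart from its group, still above all ZT18 livers. Abcb11, the bile salt export pump, rose from 412.3 to 460.4 CPM to 809.3 to 914.4 CPM (0.95 ± 0.11, edgeR adjusted p = 1.41e-07), and Fgfr4, the receptor that restrains Cyp7a1, rose by 0.61 ± 0.08. In all 4 of 20 bile acid genes rose and 2 fell, and 2 rose without ZT6 replicate 1 or ZT6 replicate 3, with no filter on low counts or in the fit on the 8 libraries alone.

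Of 33 genes of amino acid breakdown and the urea cycle 12 fell and 4 rose. Asl, the urea cycle lyase, fell from 746.6 to 962.8 CPM to 371.0 to 452.1 CPM (-1.04 ± 0.11, edgeR adjusted p = 2.19e-08), and Mat1a, which makes S-adenosylmethionine, fell by 0.68. Cbs, which draws homocysteine into cysteine synthesis, rose from 249.9 to 298.6 CPM to 513.6 to 565.9 CPM (0.99 ± 0.09, edgeR adjusted p = 1.99e-09), and Amt of the glycine cleavage system rose by 0.73. Of 20 genes of NAD and nucleoside metabolism 8 fell and 1 rose. Nampt, the rate-limiting enzyme of NAD salvage, measured 126.6, 144.5, 113.2 and 131.7 CPM at ZT6 and 41.6, 39.99, 40.6 and 34.5 CPM at ZT18 (-1.72 ± 0.14, edgeR adjusted p = 8.37e-10), beside Nmrk1, Upp2 and Nnmt (-1.92 ± 0.40), which consumes nicotinamide. The 8 falls became 4 without ZT6 replicate 1, 5 without ZT18 replicate 1 or ZT18 replicate 2 and 4 with no filter on low counts. The rise, of Kynu (0.23, edgeR adjusted p = 0.0446), was lost with other scalings, with no filter, in fits on fewer libraries, with the replicate block and without any 1 of 6 libraries.

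Among secreted proteins, the 3 fibrinogen chains rose together, Fga by 0.67 ± 0.12, Fgb by 0.68 ± 0.12 and Fgg by 0.72 ± 0.11, with no overlap between groups, and Saa4 fell by 0.83 on the log2 scale (SE 0.14). The other 18 of 22 acute phase genes were not called, so 18.2% of the list was called, against 15.1% of all tested genes. The fit on the 16 SL libraries called 6 higher and 3 lower. Of 22 interferon-stimulated genes 5 rose and none fell, led by Oasl1 (0.91 ± 0.15), Ifi47 (0.70 ± 0.16) and Isg15 (0.83 ± 0.20), and 3 rose without ZT6 replicate 2. None of 28 cytosolic ribosomal protein genes was called by edgeR, limma-voom or DESeq2, and 0 had an unadjusted p under 0.05 in edgeR.

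**Figure D4:**
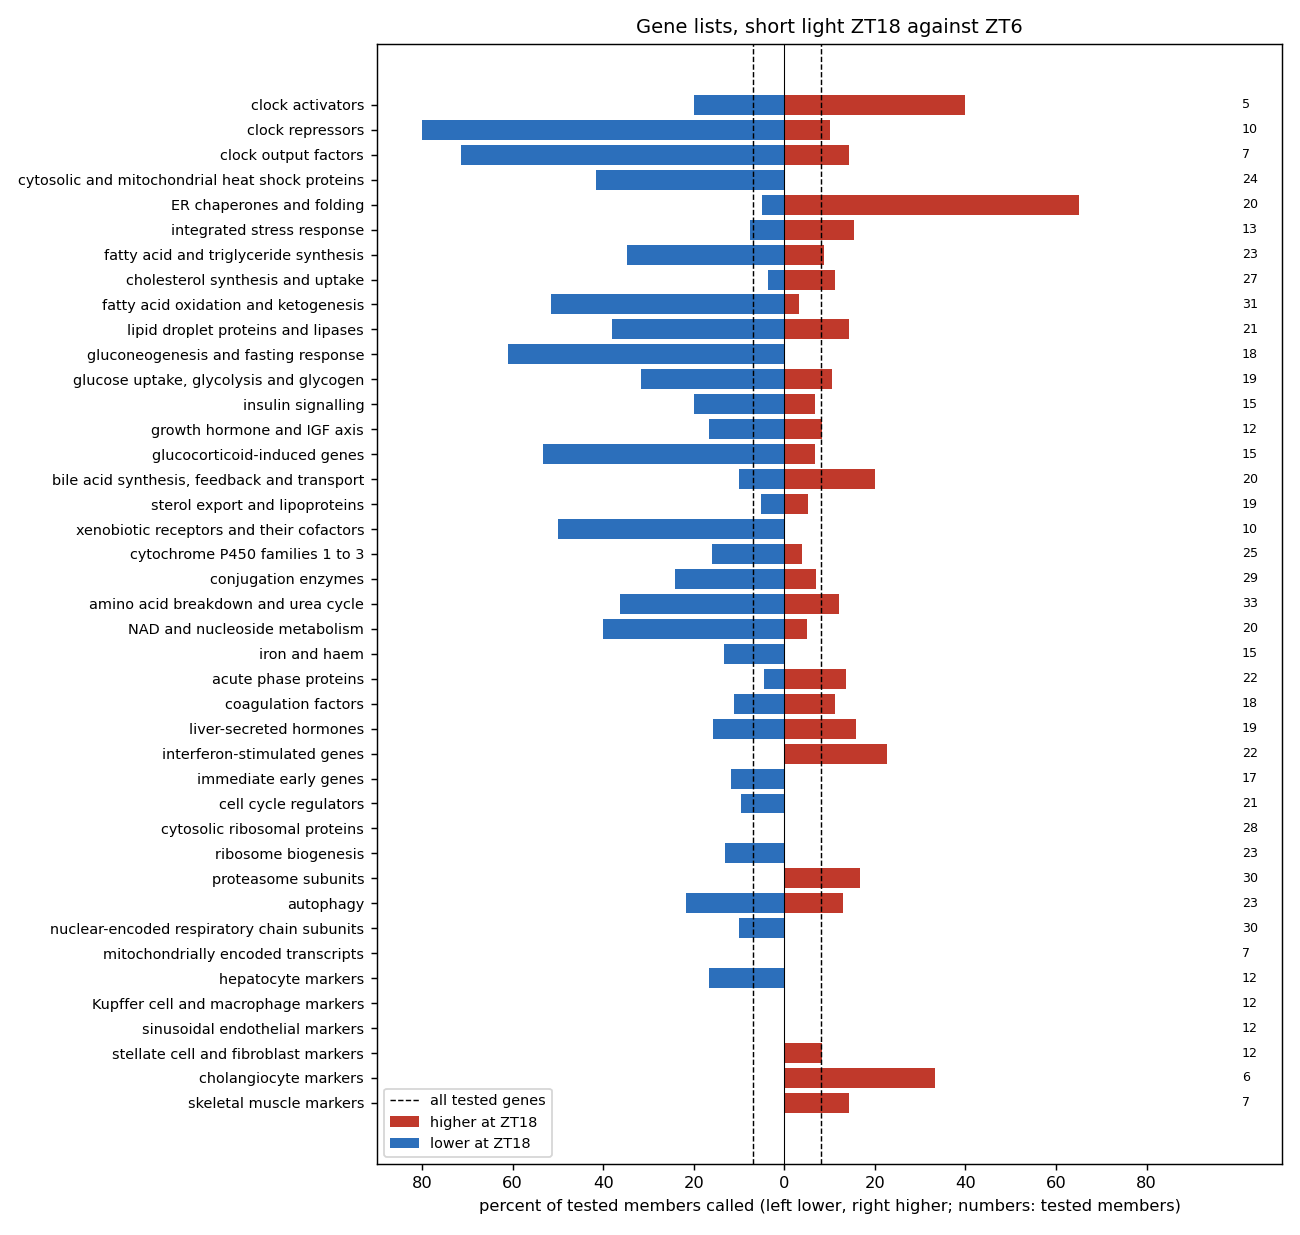
Percent of the tested members called higher (right, red) or lower (left, blue) at ZT18, for each gene list with at least 5 tested members. The number tested stands at the right edge, and dashed lines mark the shares among all tested genes, 8.09% higher and 6.98% lower. ER folding genes stand out to the right, and clock repressors, gluconeogenesis, glucocorticoid-induced genes and fatty acid oxidation to the left; lists share members and were not tested as sets.

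The remaining large differences included genes at low levels and the well-expressed Mug2. Spon2, a secreted matrix protein, rose from 4.99 to 10.8 CPM to 32.0 to 55.6 CPM (2.56 ± 0.26), and Mug2, a protease inhibitor of plasma, from 29.8 to 52.1 CPM to 178.7 to 201.0 CPM (2.18 ± 0.23). Ptgds (2.46), Clic3 (2.34), Efna3 (2.22) and Myh7b (2.21) completed the largest rises. Lmod2 (-3.86 ± 0.45), Ttll8 (-3.70 ± 0.45) and Nat8f5 (-3.21 ± 0.44) were among the largest falls, from 1.77 to 3.81 CPM at ZT6 to under 1 CPM at ZT18. Acta1, skeletal muscle actin, had the next largest rise after Npas2 among these, with 3 reads at ZT6 and 330 at ZT18. Its level was 0.49, 6.46, 0 and 11.6 CPM in ZT18 replicates 1 to 4, so replicates 2 and 4 carried it. The ratio of read shares was 116, with a 95% counting interval of 39.5 to 567 that leaves out the spread between livers. The 8 skeletal muscle markers together were at 0.458 to 0.719 CPM at ZT6 and at 2.52, 19, 0.662 and 32.4 CPM in ZT18 replicates 1 to 4, and their part in the result was not tested. Of 7 tested muscle markers edgeR called 1 higher, limma-voom 0 and DESeq2 4. The Acta1 call (edgeR adjusted p = 0.0469) was lost with limma-voom (adjusted p = 0.397) and when any 1 of 6 libraries was left out.

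The same difference in LL livers was set beside the SL values for the 2178 genes called in SL. Of these 2038 (93.6%) had the opposite sign in LL, and for 1973 (90.6%) the difference between SL and LL was itself called, against 3455 of all tested genes (23.9%). These genes were chosen by their SL difference, which also enters the difference between SL and LL. Over all 14456 tested genes, which are not independent replicates, Pearson's r between the SL and LL differences was -0.37. In LL 1565 genes were called (10.8%), 714 higher at ZT18 (4.94%) and 851 lower (5.89%), and 939 genes were called in both photoperiods, 43.1% of the SL calls and 60% of the LL calls. Of the 939, 933 went in opposite directions. Por illustrates this, with a mean of 94.9 CPM at ZT6 and 355.1 CPM at ZT18 in LL (1.91), and so does Nr1d1, which fell in LL from 87.1 to 7.21 CPM. Among the smallest p for this difference were those of Por (-5.01, edgeR adjusted p = 1.07e-14), Usp2 (-7.83), Nmrk1 (-4.40), Nrg4 (-3.73) and Ahcy (-1.84), the hydrolase of S-adenosylhomocysteine.

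**Figure D5:**
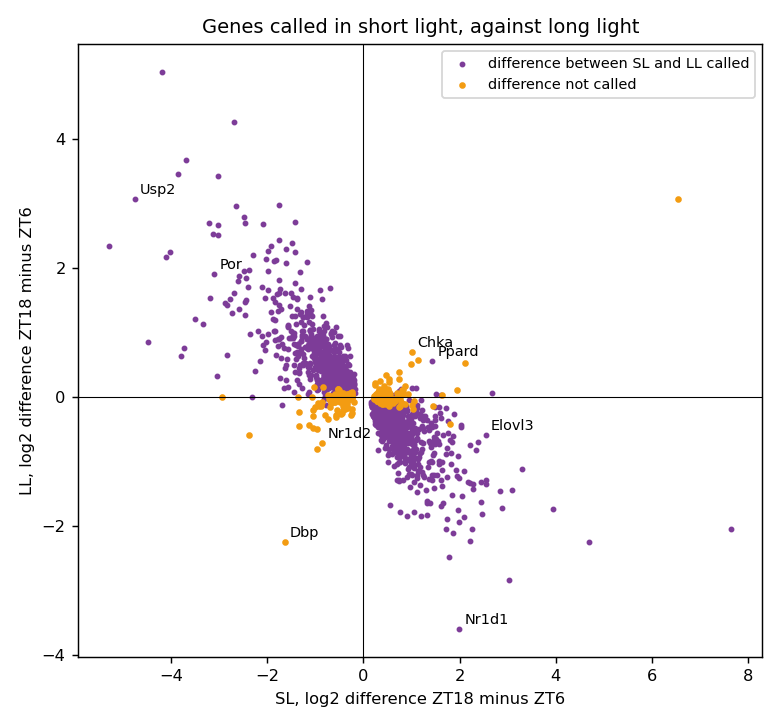
Each point is a gene called in SL, with its log2 difference ZT18 minus ZT6 in SL on the x axis and the same difference in LL on the y axis; purple marks genes whose difference between SL and LL was called. Most points lie in the upper left and lower right, where the sign is opposite, and Dbp, Nr1d2, Ppard and Chka lie where it is the same.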

How the data were processed

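Per the labels' protocols, poly-A RNA from 32 livers was made into TruSeq libraries that mark strand. The submitters' processing notes name featureCounts 1.6.2, STAR 2.7.2b, bcl2fastq 2.20.0 and the build GRCm38 (mm10). They do not give the counting's annotation, its strand setting or its treatment of multiply mapped reads. The authors deposited whole-number counts for 55471 genes, of which 32791 had a read, and a table of log2 values for 13432 genes, used here only as an alternative. The deposited log2 values lay within 0.0213 of log2 CPM from the counts. All columns matched the labels of 1 sample.

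Counts were scaled by trimmed mean of M values and kept by filterByExpr, which left 14456 genes. Means of the 8 groups were fitted over all 32 libraries with edgeR 4.0.16 in R 4.3.3, without covariates (24 residual degrees of freedom before moderation), so that all groups share 1 estimate of the spread. Contrasts were ZT18 minus ZT6 in SL, in LL, and SL minus LL of that difference. Replicates were checked in 12 within-group pairs, and chi-square per degree of freedom was 9.82 to 40.2, so none is the same library counted again. This check cannot tell 2 libraries of 1 liver from libraries of separate livers. The SL comparison was tested on simulated data with 14456 genes. A log2 change of 1 was recovered in 74 of 100 genes and of 2 in 93 of 100, with 10 unchanged genes called. For the SL to LL difference the same data gave 57 of 100 and 87 of 100, with 5 unchanged genes called. Far fewer genes were changed there than the 2178 called in the livers.

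The comparison, the gene lists and the markers were chosen with earlier results of these data known, and no list is independent support for its direction. Lists share genes. Named genes were the 10 largest rises and falls among called genes with a mean of at least 1 CPM (unnamed loci skipped), the 10 smallest p, all clock genes, 2 to 4 called members per list by p plus a called member against the main direction, the 6 smallest p of the SL to LL difference, and cold-inducible and Acot genes. Some genes taken by this rule are not reported, although counts include them. G6pc, Fasn, Hspa5 and Creld2 were added after their values were seen. Gene bounds came from GENCODE M21. Alternatives were other scalings and filters, fewer groups, a replicate block, a minimum log2 change, limma 3.58.1, DESeq2 1.42.0 and leaving out each library. At 1 CPM a gene rests on 13 to 21 reads per library.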

Additional observations from a re-analysis of the deposited data

Results flagged for a closer look

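In 11 of 330 groups of 4 livers (3.33%), 1 liver lay far from the other 3, by a criterion that chance meets in about 1 group in 20. At ZT6 the lowest liver stood apart for Cyp7a1 (182 CPM, the next at 403), Usp2 (32.3 CPM, the next at 46.1), Sult1d1 (113 CPM) and Atf3 (4.06 CPM), and the highest for Serpinf2 (676 CPM). At ZT18 the highest liver stood apart for Abcb11 (914 CPM), Cela1 (74.2 CPM), Lmod2 (0.373 CPM, the next at 0.109) and S100a9 (1.10 CPM), and the lowest for Fitm2 (46.8 CPM) and Lipc (176 CPM). The Cyp7a1 and Usp2 livers are both ZT6 replicate 3.

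The difference ZT18 minus ZT6 itself differed between SL and LL in 3455 genes by the edgeR test of that difference. Among the genes with the smallest p were Por (-5.01), Usp2 (-7.83), Nmrk1 (-4.40), Nrg4 (-3.73) and Ahcy (-1.84), as SL minus LL on the log2 scale. All 5 fell in SL and rose in LL.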

How the results depend on the processing

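None of 165 named genes changed direction under the alternatives tried. Testing against a log2 change of 0.5 instead of 0 left 346 genes (142 higher, 204 lower), and 1131 for the difference between SL and LL (587 and 544). Leaving out 1 library gave 1669 to 1901 calls (898 to 1003 higher, 771 to 916 lower) and 3058 to 3353 for the SL to LL difference (1655 to 1844 and 1375 to 1610). Other alternatives, the minimum change aside, gave 1765 to 2828 calls, of which 1620 to 2104 were also called in the reported fit. Over 165 named genes and 2942 alternative values, 2796 kept direction and side of the threshold, 141 lost their call (104 of them on leaving out a library, 33 genes in all) and 5 gained one. With the replicate block 2188 genes were called. Correlations of same-numbered livers were -0.07, 0.15, 0.12 and 0.11, and those of differently numbered livers -0.21 to 0.20, so the numbers were not taken as pairs. The block on the 8 libraries alone gave 2357. Depth limits genes near or under 1 CPM, and at ZT6 Npas2 and Acta1 each had 3 reads over the 4 livers together.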

Other observations

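In 6 genes the SL and LL differences were called in the same direction. Dbp (-1.64 in SL, -2.25 in LL), Nr1d2 (-0.86, -0.71), Erg28 (-0.27, -0.28) and Micu2 (-0.25, -0.25) were lower at ZT18 in both, and Ppard (1.43, 0.56) and Chka (1.01, 0.70) were higher. Of these the difference between SL and LL was called for Ppard (edgeR adjusted p = 0.00237). The genes were singled out after their values were seen.

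Livers at ZT6 were unlike one another for 2 fatty acid hydroxylases that respond to PPARα. Cyp4a14 measured 162.5, 4.23, 151.2 and 20.2 CPM in ZT6 replicates 1 to 4 and 2.46, 6.17, 15.5 and 20.9 CPM at ZT18. Cyp4a10 measured 303.7, 37.9, 286.6 and 62.1 CPM at ZT6 and 12.7, 21.7, 46.1 and 75.4 CPM at ZT18. Replicates 1 and 3, which the second principal component also set apart from 2 and 4, were high for both genes, and replicates 2 and 4 lay at levels that the ZT18 livers overlapped. The droplet protein Cidec was also highest in replicates 1 and 3 (9.95 and 6.38 CPM, against 3.54 and 3.10). These genes were picked after their values were seen.

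Bnip3, a receptor for the removal of mitochondria, fell from 112.9 to 132.0 CPM to 50.3 to 59.2 CPM (-1.14 ± 0.10, edgeR adjusted p = 1.48e-09), and the autophagy adaptor Sqstm1 rose from 207.2 to 226.6 CPM to 271.2 to 332.0 CPM (0.50 ± 0.08). Of 23 autophagy genes 5 fell and 3 rose.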
